A study of Oryctolagus cuniculus with 6 samples.

Results

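Chemokines and their receptors were followed in injured rabbit facial nerve with and without an implanted I-125 seed. Members were all genes in the count tables whose symbol starts with CCL, CXCL, CX3CL, XCL, CCR, CXCR, CX3CR, XCR or ACKR followed by a digit. This rule, which uses no measured value, gave 47 of the 17396 genes listed: 25 ligands, 18 signalling receptors and 4 atypical receptors. CXCL1, CXCL2, CXCL3, CXCL5, CXCL6 and CCL3, which the same pattern would take, were not listed under these symbols and so were not analysed. CXCL8 was thus the only member classed as a neutrophil ligand.

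Chemokines are small secreted proteins that guide leukocytes along a concentration gradient and bind receptors coupled to the Gi class of G protein. Atypical receptors bind chemokines without this coupling and mainly clear, carry or store them. After a peripheral nerve is cut, Schwann cells, fibroblasts and resident macrophages are known to release chemokines such as CCL2, and neutrophils and then monocytes enter the stump, where they take part in clearing myelin debris.

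The facial nerves came from wild type Japanese white rabbits, all male and 3 to 4 months old, and the left main trunk had been transected in both groups. The FNI group (facial nerve injury) had transection alone, and the nerves of the FNI+I-125 group also had a seed with an activity of 0.8 mCi, a low-energy source used in brachytherapy, left beside them at suturing. Nerves were harvested on day 14, with 3 libraries per group, each labelled as a separate sample. The study's methods describe no inactive seed in the FNI group, so the radiation and the implanted object cannot be told apart. The question was which transcripts differ in the injured nerve once the seed is present.

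Total counts were 16031151 to 16798012 per library, and members held 0.0749% to 0.0958% of the counts in the FNI libraries and 0.106% to 0.171% in the FNI+I-125 libraries. The nerve was checked against 9 Schwann cell markers, all detected, whose summed level was 7488, 4271 and 35870 CPM (counts relative to library size, with TMM scaling) in FNI replicates 1, 2 and 3 and 819, 3881 and 1936 CPM in the FNI+I-125 replicates. Several libraries stood apart. Skeletal muscle markers summed to 10250 and 9114 CPM in FNI+I-125 replicates 1 and 2 and to 765 to 1062 CPM in the other 4 libraries. Salivary gland markers reached 58400 CPM in FNI replicate 2 and 3386 CPM in FNI replicate 1, against 20.5 to 771 CPM elsewhere, and FNI replicate 3 had the highest Schwann cell and the lowest macrophage marker level. The part of this unequal tissue make-up in the results on members was not tested, and several values that 1 library moved are given with and without it. In bulk nerve, fewer cells of a type and less RNA per cell cannot be told apart.

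Most members were higher with the seed, in ligands and signalling receptors alike, but no single member passed the adjusted test. Of the 38 members with enough counts to test, 32 were higher and 6 lower with the seed, and the median log2 fold change was 1.74 beside 0.01 over the 14003 genes tested. Ligands had a median of 1.30 with 16 of 20 higher. Signalling receptors had a median of 1.93 with 14 of 14 higher, but 8 of these 14 reached the filter on low counts in full only in the FNI+I-125 libraries, which favours higher values. The 4 atypical receptors divided evenly, with a median of −0.29. The difference between ligands and receptors was not tested.

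With edgeR's quasi-likelihood test and Benjamini-Hochberg adjustment over all genes, 0 members were called higher and 0 lower at an adjusted p under 0.05 and a log2 fold change of at least 1.5 in size. This was also 0% of all genes in both directions. The members' adjusted p ran from 0.28 to 0.825, and 0.28 was the smallest over all genes, shared by 14.1% of them. At the unadjusted p with the same fold threshold, 12 members were higher and 0 lower, against 2.77% of all genes higher and 2.19% lower. These 12 were 6 ligands (CXCL8, CCL4, CCL11, CXCL11, CCL7 and CCL2) and 6 receptors, among them CCR1, CXCR6, XCR1, CCR2 and CXCR4.

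Counted over all 47 listed members, 17 had every FNI+I-125 library above every FNI library, 9 ligands and 8 receptors. ACKR1 and ACKR4 had every FNI+I-125 library below. The 17 were 44.7% of the 38 members tested, and over all genes tested the shares were 14.8% higher and 12.3% lower. DESeq2, whose Wald test uses another estimate of the spread, called 7 members higher at its adjusted p and the same fold threshold, among them CXCL8 (5.19e-06), CCR1 (0.0116), CXCR6 (0.0136), CCL11 (0.0147), CXCL11 (0.0209) and CXCR4 (0.0499). It called 0 lower, and it called 1.76% of all genes higher and 1.22% lower. Limma-voom called 0 members at its adjusted p and 8 at its unadjusted p and the fold threshold, all higher. Its shares of all genes were 0% at the adjusted p, and 2.43% higher and 1.27% lower at the unadjusted p.

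The filter on low counts bears on these counts. Of the 38 tested members, 26 met the filter's level of 0.604 CPM in all libraries of both groups, and 12 of these 26 were higher without overlap. Another 10 met it in every FNI+I-125 library and only in part of the FNI libraries: CCL5, CXCL13, CCR4, CCR6, CCR7, CXCR2, CXCR3, CXCR5, CXCR6 and XCR1. Among the signalling receptors that met the level in both groups, 6 of 6 were higher with a median of 1.81, and among such ligands 13 of 16 with a median of 1.66. CCL28 and CXCL17 met it in full in neither group. The other 9 members (CCL1, CCL17, CCL20, CCL24, CCL25, CCR3, CCR8, CCR9 and CCR10) were not tested and had at most 14 counts in any library.

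**Figure D1:**
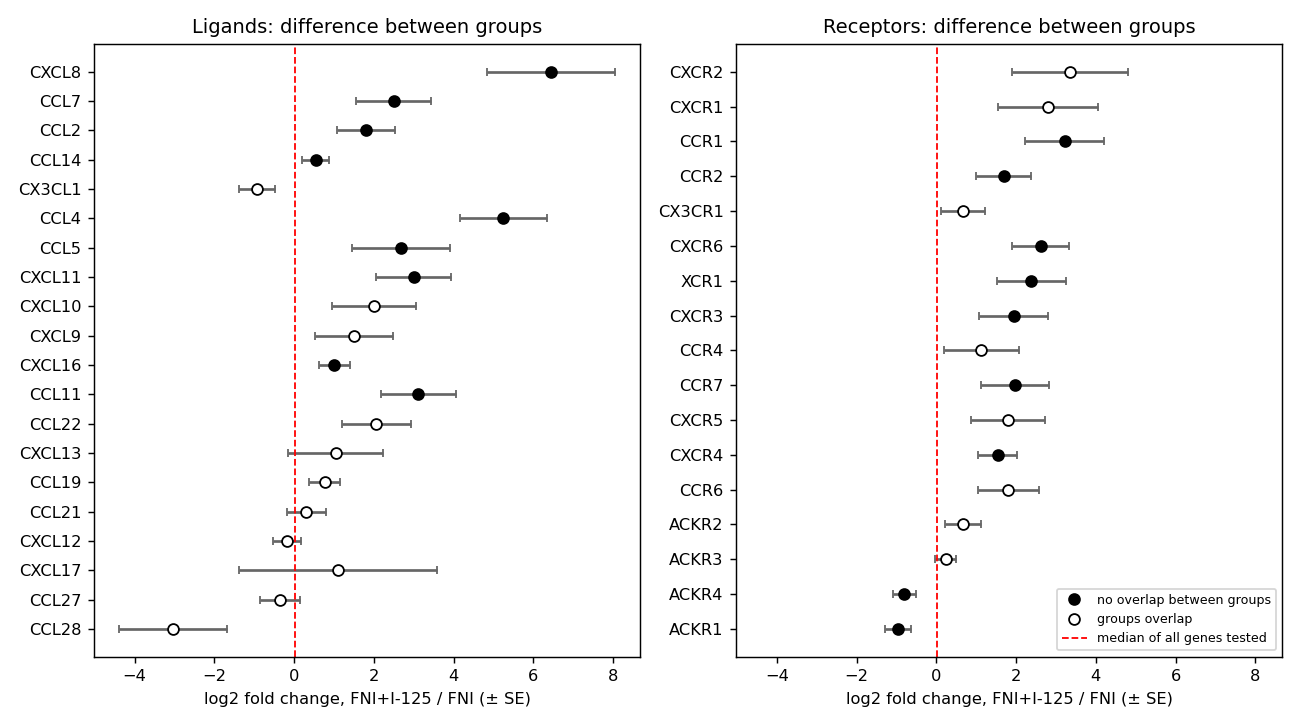
Log2 fold change of the tested members named here, FNI+I-125 over FNI, with its SE from edgeR. Ligands are on the left and receptors on the right, filled points mark groups of 3 libraries that do not overlap, and the dashed line is the median of all genes tested (0.01). Most points lie right of the line, CXCL8 and CCL4 farthest, and 6 lie left of it, CCL28, ACKR1, CX3CL1 and ACKR4 farthest.

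Levels below are TMM-scaled CPM, given for replicates 1, 2 and 3 of each group in that order. Fold changes are log2 values of FNI+I-125 over FNI with the SE in parentheses. CPM is not corrected for gene length, so levels are compared between libraries and not between genes.

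Genes for neutrophil attraction were far higher in FNI+I-125 replicate 1 than in any other library. CXCL8, the ligand that draws neutrophils through CXCR1 and CXCR2, stood at 2.17, 2.08 and 1.18 CPM in the FNI group and at 435, 12.2 and 28.1 CPM in the FNI+I-125 group. These ranges did not overlap, but replicate 1 held 91.5% of the FNI+I-125 signal, and the fold change of 6.45 (1.61) dropped to 3.47 without it. The lowest FNI+I-125 library had 201 counts and the highest FNI library 37.

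CXCR1, a receptor of CXCL8, stood at 8.79, 8.38 and 3.01 CPM in the FNI group and at 124, 4.99 and 11.3 CPM in the FNI+I-125 group. CXCR2, which also binds the other neutrophil ligands, was at 3.51, 1.58 and 0.236 CPM and at 47.5, 1.95 and 4.93 CPM. For both receptors the groups overlapped, since FNI+I-125 replicate 2 lay within the FNI range. Their fold changes of 2.80 (1.26) and 3.34 (1.46) became 0.28 and 0.95 without FNI+I-125 replicate 1. The paralogs CXCR1 and CXCR2 are similar in sequence, and how reads shared by them were counted is not given in the sources used here.

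The summed level of the 9 listed neutrophil markers was 111, 33.4 and 7.45 CPM in the FNI group and 1545, 46.2 and 145 CPM in the FNI+I-125 group. FNI+I-125 replicate 1 was thus also the highest library for these markers, which include S100A8, S100A9, CSF3R and FPR1. The sums overlapped between groups, since FNI+I-125 replicate 2 lay below FNI replicate 1. All 7 tested markers were higher, 1 of them without overlap, a share close to the 14.8% of all genes. MPO was at 0 in at least 1 library. The part of neutrophil number in the CXCL8 result was not tested.

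Monocyte ligands were higher, with the exception of CX3CL1. CCL2, the main monocyte attractant after nerve injury, was at 12.9, 13.4 and 3.01 CPM in the FNI group and at 59.8, 28.2 and 14.6 CPM in the FNI+I-125 group. These ranges did not overlap, with FNI+I-125 replicate 3 just above the highest FNI library, and the fold change was 1.81 (0.73). CCL7, which shares the receptor CCR2 with CCL2, was at 4.92, 4.79 and 0.709 CPM and at 39.5, 13.3 and 6.28 CPM, again without overlap, with a fold change of 2.50 (0.94). FNI+I-125 replicate 1 was the highest library for both, and without it their fold changes were 1.13 and 1.49.

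CCL14, a plasma chemokine that binds CCR1, differed less, at 37.1, 37.7 and 16.3 CPM and at 46.9, 44.8 and 40.6 CPM. Its groups did not overlap, and its fold change was 0.54 (0.33). CX3CL1, the membrane-bound ligand of CX3CR1, ran the other way, at 10.8, 9.70 and 24.3 CPM in the FNI group and at 5.36, 7.49 and 10.7 CPM in the FNI+I-125 group. The ranges touched, with FNI+I-125 replicate 3 above FNI replicate 2. The fold change was −0.93 (0.45), and −0.41 without FNI replicate 3.

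CCL4 and CCL5 attract macrophages and effector T cells, and CCL5 binds CCR1. CCL4 was at 0.703, 1.01 and 1.18 CPM in the FNI group and at 89.6, 10.04 and 11.5 CPM in the FNI+I-125 group. The FNI libraries lay close together, at 12 to 20 counts, and the FNI+I-125 libraries had 165 to 1371 counts. The fold change of 5.25 (1.08) became 3.47 without FNI+I-125 replicate 1. CCL4 has near-identical copies in several mammals, and how such reads were assigned here is not known.

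CCL5 was at 4.22, 15.8 and 0.414 CPM in the FNI group and at 19.4, 88.6 and 23.6 CPM in the FNI+I-125 group. Here replicate 2 was the highest library in each group, unlike CCL4, whose highest library was FNI+I-125 replicate 1. The fold change of 2.69 (1.23), which was 1.63 without FNI+I-125 replicate 2 and 4.24 without FNI replicate 2, had an edgeR adjusted p of 0.316 and did not pass the unadjusted test either, although the groups did not overlap.

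**Figure D2:**
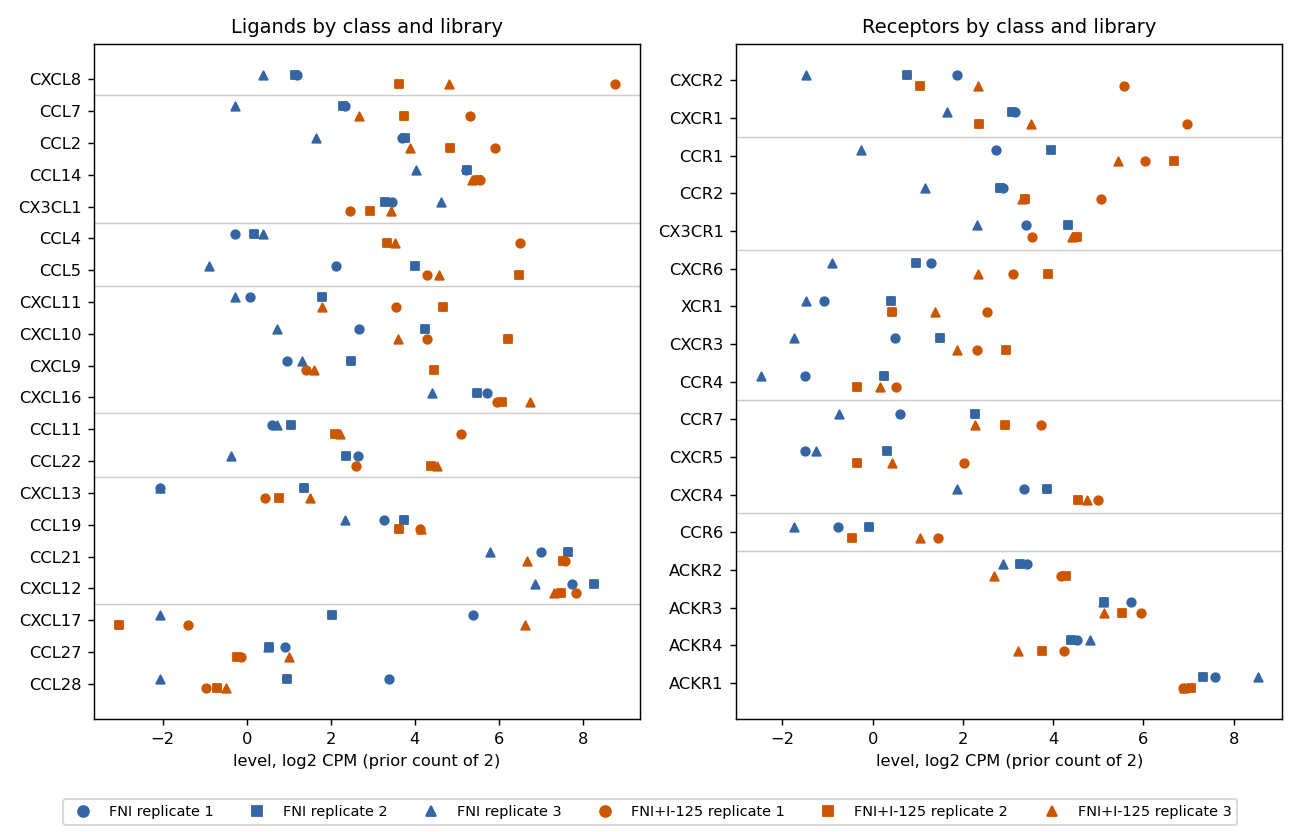
Level of the tested members named here in each of the 6 libraries, in log2 CPM with a prior count of 2, with ligands on the left and receptors on the right, ordered by the cell they recruit or mark and divided by grey lines. Blue symbols are FNI libraries and orange symbols FNI+I-125 libraries. FNI+I-125 replicate 1 (orange circle) is far to the right for CXCL8, CXCR1 and CXCR2, and FNI replicate 3 (blue triangle) is the leftmost point for most receptors.

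Among the receptors of monocytes and macrophages, CCR1 and CCR2 were higher without overlap and CX3CR1 was not. CCR1, a receptor of CCL5 and CCL14, was at 6.56, 15.4 and 0.709 CPM in the FNI group and at 65.6, 102 and 43.1 CPM in the FNI+I-125 group. The FNI+I-125 libraries lay well above all FNI libraries. Its fold change of 3.22 (0.99) lay between 2.67 and 4.27 with any 1 library left out.

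CCR2, the receptor that brings classical monocytes out of the blood in response to CCL2 and CCL7, was at 7.32, 6.99 and 2.13 CPM and at 33.1, 10.2 and 9.75 CPM. FNI+I-125 replicates 2 and 3 lay just above FNI replicate 1, and the fold change of 1.69 (0.69) became 0.86 without FNI+I-125 replicate 1. CX3CR1, the receptor of resident macrophages and patrolling monocytes, was at 10.4, 19.9 and 4.85 CPM and at 11.5, 23.1 and 21.1 CPM. Its groups overlapped, and its fold change was 0.67 (0.54).

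The 12 listed markers of monocytes and macrophages summed to 832, 1086 and 304 CPM in the FNI group and to 1646, 1901 and 1276 CPM in the FNI+I-125 group, with no overlap. All 11 tested markers were higher, 6 of them without overlap, beside 51.1% and 14.8% of all genes. The median log2 fold change of the tested markers was 1.21. No defining marker (CD14, CD68, CSF1R, CD163 or MRC1) was at 0 in a library. The part of these cells' number in the values of CCR1 and CCR2 was not tested.

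**Figure D3:**
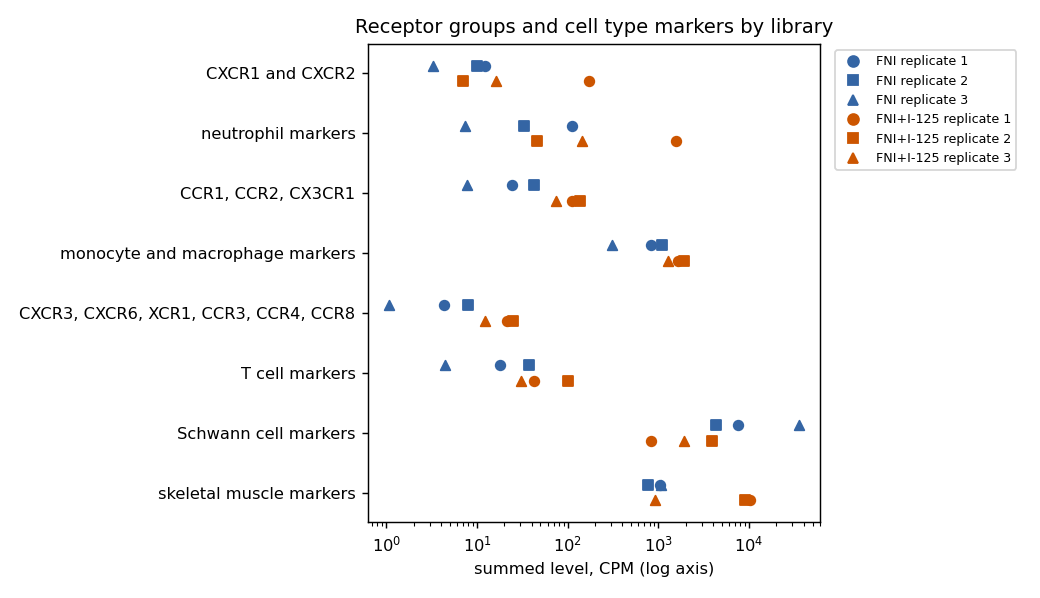
Summed CPM, on a log axis, of 3 groups of chemokine receptors and of the markers of 5 cell types in each library, with blue for FNI and orange for FNI+I-125. FNI replicate 3 is the lowest library for each receptor group and for the neutrophil, macrophage and T cell markers. Schwann cell markers are highest in FNI replicate 3 (35870 CPM), and skeletal muscle markers are highest in FNI+I-125 replicates 1 and 2.

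Interferon-inducible ligands of T and NK cells had their highest level in FNI+I-125 replicate 2. CXCL9, CXCL10 and CXCL11 all bind CXCR3 and are classical targets of interferon gamma. CXCL11 was at 0.937, 3.34 and 0.709 CPM in the FNI group and at 11.5, 25.2 and 3.35 CPM in the FNI+I-125 group, which gave a fold change of 3.00 (0.94). Its groups were barely separated, since FNI+I-125 replicate 3 lay at the level of FNI replicate 2, with 57 and 53 counts.

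CXCL10 was at 6.27, 18.7 and 1.54 CPM and at 19.4, 74.7 and 12.03 CPM, with overlapping groups and a fold change of 2.00 (1.06). CXCL9 was at 1.82, 5.48 and 2.36 CPM and at 2.55, 21.9 and 2.94 CPM, with a fold change of 1.504 (0.97). The CXCL9 value rested on FNI+I-125 replicate 2, without which it was −0.26, and the CXCL10 value was 0.81 without it. In both groups replicate 2 was the highest library for all 3 ligands.

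CXCL16, a transmembrane chemokine and scavenger receptor of macrophages that binds CXCR6, was at 52.5, 44.2 and 20.9 CPM in the FNI group and at 61.8, 67.2 and 107 CPM in the FNI+I-125 group. These ranges did not overlap and the fold change was 1.01 (0.39), below the fold threshold. FNI+I-125 replicate 3 was the highest library, unlike for the CXCR3 ligands.

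Of the receptors of T, NK and dendritic cells, all at low levels, CXCR3, CXCR6 and XCR1 were higher without overlap. CXCR3, which marks activated T and NK cells, was at 1.29, 2.71 and 0.177 CPM in the FNI group and at 4.84, 7.61 and 3.52 CPM in the FNI+I-125 group, without overlap and with a fold change of 1.93 (0.87). CXCR6, the receptor of CXCL16 on effector and resident T cells, was at 2.34, 1.83 and 0.414 CPM and at 8.50, 14.7 and 4.93 CPM. Its groups did not overlap, and its fold change of 2.61 (0.72) stayed between 2.11 and 3.06 with any 1 library left out.

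XCR1, the receptor that marks cross-presenting dendritic cells, was at 0.351, 1.20 and 0.236 CPM and at 5.69, 1.22 and 2.47 CPM, with a fold change of 2.38 (0.86). The groups were barely separated, by 20 counts in FNI+I-125 replicate 2 and 19 counts in FNI replicate 2, and the fold change was 1.62 without FNI+I-125 replicate 1. CCR4, the receptor of CCL17 and CCL22 on Th2 and regulatory T cells, was at 0.234, 1.07 and 0.0591 CPM and at 1.31, 0.670 and 0.998 CPM, with overlap and a fold change of 1.12 (0.94), which was 2.69 without FNI replicate 2. CCR8, another receptor of Th2 and regulatory T cells, was not tested, with 2, 7 and 3 counts in the FNI group and 4, 6 and 2 in the FNI+I-125 group. CCR3, the eotaxin receptor of eosinophils, had 0, 10 and 0 counts and 14, 2 and 5 counts.

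The 11 T cell markers summed to 17.8, 37.2 and 4.49 CPM in the FNI group and to 42.0, 102 and 30.6 CPM in the FNI+I-125 group. All 10 tested T cell markers were higher, 3 without overlap (14.8% of all genes), and CD3G was at 0 in at least 1 library. The 4 listed markers of NK and cytotoxic cells summed to no more than 16.3 CPM in any library, in FNI+I-125 replicate 2, with NKG7 and PRF1 at 0 in at least 1 library. Markers of dendritic cells summed to 18.6 to 48.3 CPM in the FNI group and to 56.1 to 87.4 CPM in the FNI+I-125 group, of which 3 of 4 tested were higher and ZBTB46 was lower without overlap. The part of these cells' numbers in the receptor values was not tested.

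Ligands of eosinophils and Th2 cells were represented by CCL11 and CCL22. CCL11, or eotaxin, was at 1.41, 1.95 and 1.54 CPM in the FNI group and at 33.9, 4.14 and 4.52 CPM in the FNI+I-125 group. All FNI+I-125 libraries lay above the narrow FNI range, and the fold change of 3.12 (0.94) became 1.41 without FNI+I-125 replicate 1. CCL22, made by macrophages and dendritic cells, was at 6.15, 5.04 and 0.650 CPM and at 5.95, 20.8 and 22.9 CPM, with overlap and a fold change of 2.07 (0.88). CCL17, CCL24 and CCL1 were not tested, with at most 13 counts for CCL17, 3 for CCL24 and 1 for CCL1 in any library. The 5 listed markers of eosinophils and mast cells summed to 25.5, 40.3 and 6.15 CPM and to 24.4, 11.7 and 15.3 CPM, most of it from KIT, a gene of mast cells. The eosinophil gene PRG2 had 0, 1 and 0 counts and 35, 0 and 1 counts, highest in FNI+I-125 replicate 1, as was CCL11. EPX, another eosinophil gene, went another way, with 1, 7 and 0 counts and 0, 0 and 1 counts, highest in FNI replicate 2. The part of eosinophils in the CCL11 values was not tested.

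Of the homeostatic ligands of lymphoid and stromal tissue, none separated the groups, whereas CXCR4 and CCR7 among their receptors were higher without overlap. CXCL12, the stromal ligand that retains stem cells and lymphocytes, was at 213, 306 and 116 CPM in the FNI group and at 227, 176 and 158 CPM in the FNI+I-125 group, which gave a fold change of −0.18 (0.36). CCL21, which lymphatic endothelium makes to guide dendritic cells, was at 127, 201 and 55.0 CPM and at 188, 185 and 101 CPM, with a fold change of 0.31 (0.49). CCL19, the other ligand of CCR7, was at 9.49, 13.3 and 4.91 CPM and at 17.4, 12.2 and 17.6 CPM, with a fold change of 0.77 (0.39). In all 3 the groups overlapped, and FNI replicate 3 was the lowest library. CXCL13, the B cell attractant, was at 0.117, 2.46 and 0.118 CPM and at 1.24, 1.58 and 2.70 CPM, also with overlap. Its fold change of 1.04 (1.18) became 3.88 without FNI replicate 2, which had 39 counts against 2 in each of the other FNI libraries.

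CXCR4, the receptor of CXCL12 on most leukocytes, was at 10.1, 14.5 and 3.55 CPM in the FNI group and at 31.7, 23.2 and 26.7 CPM in the FNI+I-125 group. The FNI+I-125 libraries lay close together and above all FNI libraries, with a fold change of 1.54 (0.49). Without FNI replicate 3 it was 1.13, below the fold threshold. CCR7, which leads dendritic cells and naive T cells to CCL19 and CCL21, was at 1.41, 4.66 and 0.473 CPM and at 13.2, 7.55 and 4.70 CPM, with a fold change of 1.96 (0.85). Its groups did not overlap, although FNI+I-125 replicate 3 and FNI replicate 2 lay close together, with 80 and 74 counts, and its fold change was 3.16 without FNI replicate 2. CXCR5, the receptor of CXCL13 on B cells, was at 0.234, 1.13 and 0.296 CPM and at 3.92, 0.670 and 1.23 CPM, with overlap, and its fold change of 1.80 (0.93) became 0.78 without FNI+I-125 replicate 1. Markers of B cells summed to 9.87 to 23.8 CPM in the FNI group and to 23.8 to 37.0 CPM in the FNI+I-125 group.

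Ligands of mucosal and skin homing were set by single libraries. CXCL17, a mucosal chemokine, was at 41.7, 3.97 and 0.118 CPM in the FNI group and at 0.262, 0 and 98.1 CPM in the FNI+I-125 group. The fold change of 1.10 (2.47) became −6.84 without FNI+I-125 replicate 3, and the library with no CXCL17 count allows up to 0.182 CPM (3 counts, for counting error only). CCL28, a mucosal ligand of CCR3 and CCR10, was at 10.3, 1.83 and 0.118 CPM and at 0.392, 0.487 and 0.587 CPM, and its fold change of −3.04 (1.36) became −0.98 without FNI replicate 1. Epithelial markers such as EPCAM and KRT5 summed to 1149, 317 and 154 CPM and to 31.3, 39.5 and 1563 CPM, highest in the same 2 libraries as CXCL17, and FNI replicate 1 was also the highest library for CCL28. The part of epithelial tissue in these values was not tested.

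CCL27, a keratinocyte ligand of CCR10, was at 1.76, 1.32 and 1.30 CPM in the FNI group and at 0.784, 0.730 and 1.88 CPM in the FNI+I-125 group, with overlap. CCR6, the receptor of CCL20 on Th17 and B cells, was at 0.469, 0.819 and 0.177 CPM and at 2.62, 0.609 and 1.94 CPM, with overlap and a fold change of 1.80 (0.77). The gut-homing receptor CCR9 had 8, 7 and 3 counts and 2, 3 and 5 counts, and the skin-homing receptor CCR10 had 2, 0 and 2 counts and 1, 2 and 0 counts. CCL25, the ligand of CCR9, and CCL20, the ligand of CCR6, had at most 12 and 14 counts in any library.

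Of the atypical receptors, ACKR1 and ACKR4 were lower in every FNI+I-125 library than in any FNI library. ACKR1, the Duffy antigen, which carries chemokines across the endothelium of venules, was at 192, 159 and 369 CPM in the FNI group and at 116, 132 and 119 CPM in the FNI+I-125 group. Its fold change was −0.97 (0.33), and −0.54 without FNI replicate 3, its highest library. ACKR4, which scavenges CCL19, CCL21 and CCL25, was at 23.0, 20.9 and 28.1 CPM and at 18.8, 13.3 and 9.22 CPM, with a fold change of −0.80 (0.29). Both fold changes were below the threshold of 1.5 in size, and the edgeR adjusted p was 0.28 for each.

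ACKR2, a scavenger of inflammatory CC ligands on lymphatic endothelium, was at 10.7, 9.45 and 7.27 CPM in the FNI group and at 17.9, 19.2 and 6.28 CPM in the FNI+I-125 group. ACKR3, which takes up CXCL11 and CXCL12, was at 52.8, 34.9 and 34.4 CPM and at 61.8, 46.1 and 35.1 CPM. Both overlapped between groups, with fold changes of 0.67 (0.44) and 0.23 (0.27). Markers of endothelium summed to 2364 to 2882 CPM in the FNI group and to 1790 to 2891 CPM in the FNI+I-125 group. Of the 7 tested, 6 were lower, 2 of them without overlap (12.3% of all genes). Lymphatic markers summed to 117 to 182 CPM and to 130 to 371.5 CPM. Their part in the ACKR values was not tested.

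**Figure D4:**
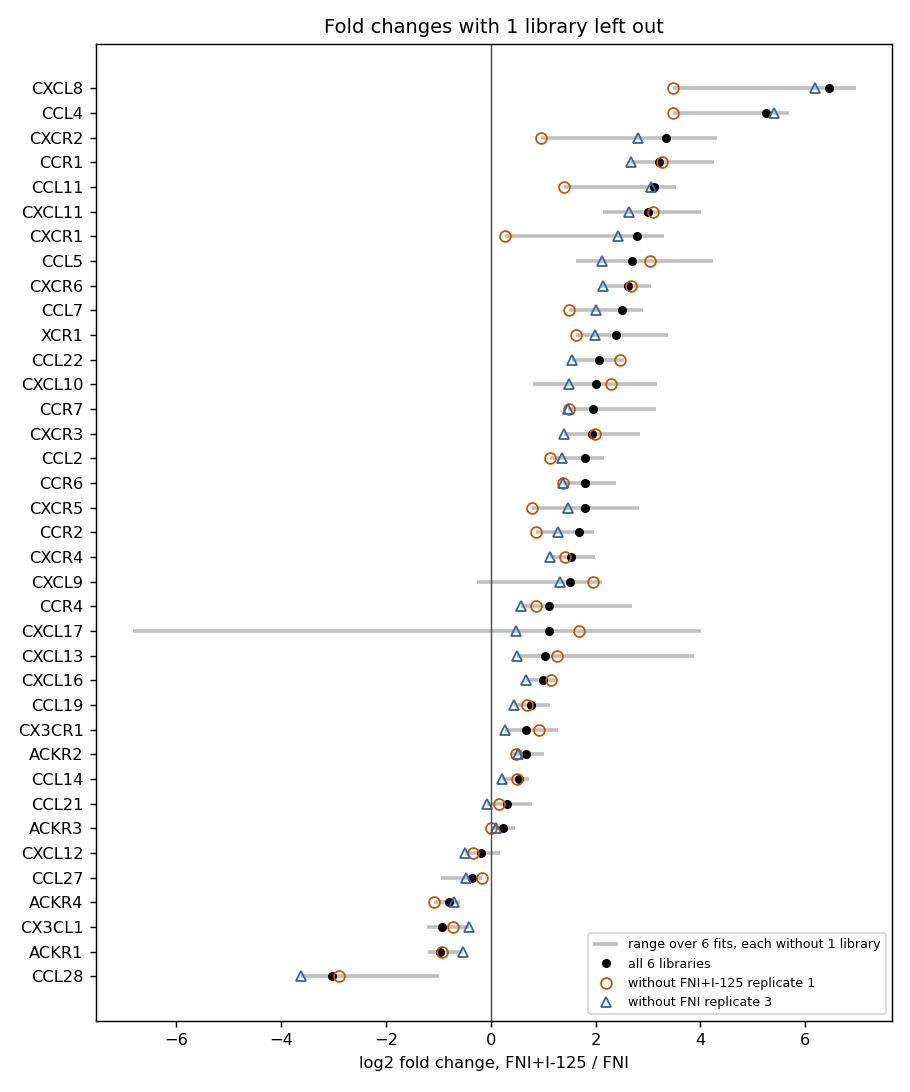
Log2 fold change of the tested members named here with all 6 libraries (black) and the range over the 6 fits that each leave out 1 library (grey bars), with the values without FNI+I-125 replicate 1 (orange circles) and without FNI replicate 3 (blue triangles). CXCL8 and CCL4 drop to 3.47 and CXCR1 to 0.28 without FNI+I-125 replicate 1, while CCR1 (3.27) and CXCR6 (2.68) move little without it. Over the 6 fits CCR1 spans 2.67 to 4.27 and CXCL17 −6.84 to 4.00.

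Single libraries decided part of these values. Of the 38 tested members, the highest of the 6 libraries was FNI+I-125 replicate 1 for 16, replicate 2 for 10 and replicate 3 for 6, and the lowest was FNI replicate 3 for 27. The higher members divided by their top FNI+I-125 library. Replicate 1 led for 17, among them CXCL8, CXCR1, CXCR2, CCL2, CCL7, CCR2, CCL4 and CCL11. Replicate 2 led for 10, among them CCL5, CCR1, CXCR3, CXCR6 and the CXCR3 ligands. Replicate 3 led for 5, CXCL16, CCL22, CCL19, CXCL13 and CXCL17.

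All 12 members at the unadjusted p stayed higher in each of the 6 fits with a library left out. For the named ones, whose groups did not overlap, this outcome was fixed in advance and adds no support. The number of the 12 still at that p and fold was 3 without FNI replicate 1, 9 without FNI replicate 2 and 4 without FNI replicate 3. It was 6, 7 and 12 without FNI+I-125 replicates 1, 2 and 3. CXCL8, CCL4 and CXCR6 kept their place in all 6 fits. Without FNI replicate 3, the library with the least macrophage and the most Schwann cell marker signal, CCR1 was the other member kept.

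Ligands were also set beside the receptors they bind. Of 40 known pairs listed, 28 had both genes in the tables and 19 had both tested. In 14 pairs both genes were higher, in 0 both lower. In 3 pairs the ligand was lower and the receptor higher: CX3CL1 with CX3CR1, and CXCL12 with CXCR4 and with ACKR3. The scavenger ACKR4 was lower while its ligands CCL19 and CCL21 were slightly higher. Pairs share genes, so they are not independent of each other. Since 16 of 20 tested ligands and 16 of 18 tested receptors were higher, most pairings of any of them would have both genes higher. Whether partners changed together was not tested.

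**Figure D5:**
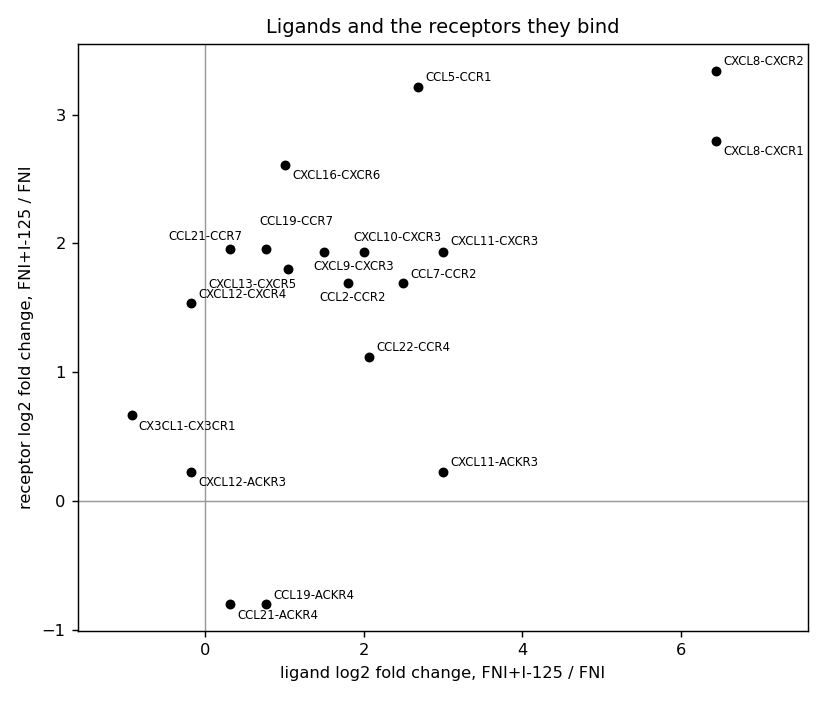
Log2 fold change of the ligand (horizontal) and the receptor (vertical) for the 19 pairs in which both genes were tested. The 14 pairs at the upper right have both genes higher, CXCL8 with its receptors CXCR1 and CXCR2 lies farthest right, and the 2 pairs with ACKR4 lie below the horizontal line.

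Other genes of chemokine signalling were taken from 4 lists. Of their 65 tested genes, 54 were higher and 11 lower, beside 51.1% of all genes higher. The median log2 fold change of the 65 was 0.95, beside 0.01 over all genes tested. At the edgeR adjusted p, 0 passed in either direction, and 14 were higher and 0 lower at the unadjusted p and fold threshold, beside the 2.77% and 2.19% of all genes given above. DESeq2 called 9 at its adjusted p and the fold threshold, all higher, beside 1.76% of all genes higher and 1.22% lower. From each list the 3 genes with the smallest p are given, each with an edgeR adjusted p of 0.28. Of the 65 genes, 6 met the filter level in full only in the FNI+I-125 libraries, among them PPBP, RGS1 and OSM.

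Among 10 tested chemokine genes outside the name pattern, 6 were higher and 4 lower, close to the 51.1% of all genes that were higher. PPBP, the platelet chemokine CXCL7 and a ligand of CXCR2, was at 0.234, 0.441 and 0.118 CPM in the FNI group and at 12.4, 2.50 and 4.17 CPM in the FNI+I-125 group, which gave a fold change of 4.56 (0.85), or 3.63 without FNI+I-125 replicate 1. PPBP had at most 7 counts in an FNI library, below the filter level. CKLF, a chemokine-like factor, was at 3.10, 4.22 and 2.60 CPM and at 7.52, 15.95 and 5.75 CPM, with a fold change of 1.56 (0.45), or 0.98 without FNI+I-125 replicate 2. RARRES2, which encodes the attractant chemerin, was lower without overlap, at 165, 157 and 205 CPM and at 116, 128 and 111 CPM, with a fold change of −0.57 (0.15).

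Of 27 tested signalling genes downstream of the receptors, 22 were higher, 17 of them without overlap, beside 51.1% and 14.8% of all genes. FGR, a Src family kinase of myeloid cells, was at 19.9, 24.3 and 22.8 CPM in the FNI group and at 67.3, 44.3 and 45.3 CPM in the FNI+I-125 group, with little spread in either and a fold change of 1.23 (0.21). RAC2, the leukocyte GTPase that drives the cytoskeleton in chemotaxis, was at 34.1, 46.2 and 7.98 CPM and at 103, 143 and 91.6 CPM, with a fold change of 1.94 (0.62). RAP1B, a GTPase of integrin activation, had a fold change of 0.52 (0.14). Of 11 tested genes that desensitize the receptors, 9 were higher, again beside 51.1% of all genes. The kinase GRK2 had a fold change of 0.50 (0.14), the arrestin ARRB2 of 0.36 (0.12), and RGS1, which shortens G protein signals in lymphocytes, of 3.21 (1.11), which was 2.10 without FNI+I-125 replicate 2.

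All 17 tested inducers of chemokine transcription were higher, 11 without overlap, beside 51.1% and 14.8% of all genes. At the unadjusted p and fold threshold 5 were higher, beside 2.77% of all genes. Some of this list, OSM among them, met the filter level in full only in the FNI+I-125 libraries, which favours higher values. CEBPB, a transcription factor that acts on the promoters of CXCL8 and other inflammatory genes, was at 64.5, 74.3 and 33.1 CPM in the FNI group and at 281, 188 and 135 CPM in the FNI+I-125 group, which gave a fold change of 1.81 (0.40). IRF1, which mediates interferon responses, had a fold change of 1.25 (0.35). OSM, a cytokine of neutrophils and macrophages, had 8, 12 and 0 counts and 1410, 66 and 128 counts. Like CXCL8, it was highest in FNI+I-125 replicate 1, and its fold change of 6.39 (1.72) became 3.80 without that library.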

How the data were processed

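RNA-seq counts of 6 libraries were analysed, 3 per group. The labels give the mirVana kit and stranded TruSeq mRNA libraries, whereas the study's methods give TRIzol, and both give a HiSeq instrument. The authors deposited raw counts per gene, 1 table per library. HISAT2 and the build OryCun2.0 are named in the submitters' processing notes. The counting program and its strand setting are not given in the sources used here, so overlapping and near-identical genes may share reads. Of 2992 LOC numbers, 542 were given a symbol from the RefSeq table of assembly mOryCun1.1, none a chemokine gene, and 46 of the 47 member symbols were found there (all but CCL28). That table was used for names and gene order alone, since its build differs.

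Counts were fitted with edgeR 4.0.16 in R 4.3.3 (glmQLFit and glmQLFTest, TMM, filterByExpr with a minimum count of 10) on all 14003 genes that passed, two-sided, with Benjamini-Hochberg adjustment. The thresholds, an adjusted p under 0.05 and a log2 fold change of 1.5, are the study's. Biological variation between libraries was 43.0% (BCV). The labels name no rabbits, so p-values measure the spread between these libraries. DESeq2 1.42.0, limma 3.58.1 (voom), other scalings and filters, the replicate number as a block and fits without 1 library at a time were alternatives. The scripts were tested on simulated data. A count of 0 allows up to 3 counts.

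Members are named, except that 1 result is not reported here. Counts and medians are over all members, and pairs are over the genes named. Library values are given for receptors, for members at the unadjusted p with the fold threshold and for their partners, and other members were added for completeness. Of each pathway list, the 3 genes with the smallest p are named. Members and lists were chosen with earlier results of these data known. For each library, log2 CPM less the mean of its own group was correlated across genes with that of the same-numbered library. These correlations of deviations were 0.047, −0.234 and −0.188, so numbers were not taken as pairs.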

Additional observations from a re-analysis of the deposited data

How the results depend on the processing

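Of 558 member fold changes under the alternatives, 551 kept their sign and 7, of 5 members, reversed. These were CXCL17 with limma-voom (−1.51), with the replicate block (−3.78) and without FNI+I-125 replicate 3 (−6.84), CXCL9 without FNI+I-125 replicate 2 (−0.26), ACKR3 without FNI+I-125 replicate 1 (−0.003), CCL21 without FNI replicate 3 (−0.065) and CXCL12 without FNI replicate 2 (0.185). With 1 library left out, CXCL17 ran from −6.84 to 4.00, CXCL9 from −0.26 to 2.12, ACKR3 from −0.003 to 0.46, CCL21 from −0.065 to 0.80 and CXCL12 from −0.49 to 0.185. DESeq2 called 7 members higher at its adjusted p, 19 higher and 1 lower at its unadjusted p, where edgeR called 0, 12 and 0. Of all 14003 genes tested, DESeq2 had 501 higher at the unadjusted p and fold threshold and edgeR 388. The cause was not tested. Leaving out 1 library gave 3 to 17 members higher and 0 to 1 lower at the unadjusted p, and 7 (without FNI replicate 3) to 24 (without FNI replicate 2) pathway genes, where 14 were found with all libraries. The number of all genes higher in these fits also moved, from 239 without FNI replicate 3 to 514 without FNI+I-125 replicate 3. It was 500 without FNI replicate 2, the fit with 17 members. With 1 library left out, the median log2 fold change of ligands ran from 1.00 to 2.11. That of receptors ran from 0.93 (without FNI+I-125 replicate 1) to 2.55 (without FNI replicate 2). With at least 10 counts in every library, 11 members were higher without overlap in place of 17, since 5 were no longer tested and CXCL11 came to overlap, and the median was 1.09 for receptors and 1.645 for ligands. With no filter CCR7 and CXCL11 came to overlap, and with upper-quartile scaling XCR1 as well. Without FNI+I-125 replicate 3, 4 members were lower without overlap. The replicate block gave 15 members at the unadjusted p, beside 375 of all 14003 genes higher, with medians of 1.45 for ligands and 1.74 for receptors. It changed no call at the adjusted p. In the correlations of deviations from the group mean, no library correlated best with its own number. Library size alone, upper-quartile scaling and library sizes without muscle and gland genes moved the median of all genes by under 0.1. Without FNI+I-125 replicate 3, edgeR called 38 genes higher over the whole table at the adjusted p. Low counts limit CCR4, CCR6, CXCR5, CXCL13 and the 9 members not tested.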

Other observations

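Several members are neighbours in the RefSeq gene order of assembly mOryCun1.1, which was used for order alone. CXCL11, CXCL10 and CXCL9 follow each other with 0 genes between, and all 3 were higher with their highest level in FNI+I-125 replicate 2. CXCR1 and CXCR2 are adjacent, and both were highest in FNI+I-125 replicate 1. The receptor genes CCR2, CCR3, CCR1, XCR1, CXCR6 and CCR9 follow each other with at most 2 other genes between neighbours, and CCR2, CCR1, XCR1 and CXCR6, which were tested, were higher without overlap. Of the run CCL22, CX3CL1 and CCL17, adjacent to each other, CCL22 had a log2 fold change of 2.07 and CX3CL1 of −0.93, and CCL17 was not tested. Neighbours can share reads of overlapping transcripts, and their likeness was not tested.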
